A study of Mus musculus with 16 samples.

Results

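The 10 genes described here are Nr4a1, Nr4a2, Nr4a3, Egr1, Egr2, Egr3, Fos, Fosb, Jun and Junb, transcription factor genes known as early targets of the T cell receptor (TCR). They were taken by symbol, each had exactly 1 probe set that carried its symbol alone, and all 10 were among the 12798 of 19531 genes that passed a filter on low values. The series holds 16 Affymetrix Mouse Gene 1.0 ST arrays of RNA from CD4+ T cells, taken from the spleens of 6-week-old male mice. The Treg arrays came from CD3+ CD4+ GFP+ cells and the Tconv arrays from CD3+ CD4+ GFP- cells, each sorted a second time on a MoFlo sorter. Treg are regulatory T cells, which carry the transcription factor Foxp3, and Tconv are conventional CD4+ T cells. Every mouse carried a GFP reporter at Foxp3. In NOD Foxp3-Fusion-GFP and B6 Foxp3-Fusion-GFP mice (fusion) GFP is part of the Foxp3 protein, and in NOD Foxp3-ires-GFP and B6 Foxp3-ires-GFP mice (ires) it is made from the same transcript as a separate protein. NOD is a strain prone to autoimmune diabetes, and B6 is a standard laboratory strain. No group without a reporter was analysed here, and the Tconv cells carry the same alleles as the Treg cells. Cell type, background and allele made 8 groups of 2 arrays. The 2 arrays of each group carry numbers, but no label says whether each stands for its own mouse, a pool or a repeat of 1 sample. The p-values therefore cover only the spread from array to array, and this may be technical.

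When the TCR binds its ligand, calcium, protein kinase C and MAP kinase signals reach factors already present in the cell. These switch on the immediate-early genes within minutes and without new protein synthesis. Fos, Fosb, Jun and Junb encode subunits that pair to form AP-1, Egr1 to Egr3 encode zinc finger factors, and Nr4a1 to Nr4a3 encode orphan nuclear receptors. In T cells Nr4a1 (Nur77) is widely used as a reporter of TCR signal strength, Egr2 and Egr3 are known for restraining activation, and the NR4A factors are known for a role in Treg development and identity. The same genes also respond to the handling of tissue and cells.

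RefSeq's promoter table for assembly GRCm38.p6 held 8 of the 10 genes, and Egr1 and Egr3 are named only. The 250 bases before each listed start were searched on both strands for 6 motifs that are textbook inputs or targets of this network. Shown in full are the windows of Nr4a2, the gene with the largest background difference in Treg, of Fos, and of Jun, the gene without a match to these 6 motifs. For Nr4a1, Nr4a3, Egr2 and Fosb, 30 bases that hold matches are shown. Capitals mark matches, on the strand of the gene or as the reverse complement.
Nr4a2 (chr2:57124004-57124253, minus strand): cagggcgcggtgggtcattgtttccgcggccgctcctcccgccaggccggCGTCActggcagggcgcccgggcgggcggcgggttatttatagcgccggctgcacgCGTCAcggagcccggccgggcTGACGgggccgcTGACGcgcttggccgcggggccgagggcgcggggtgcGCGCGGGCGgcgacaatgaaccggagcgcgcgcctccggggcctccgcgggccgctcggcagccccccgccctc
Fos (chr12:85473640-85473889, plus strand): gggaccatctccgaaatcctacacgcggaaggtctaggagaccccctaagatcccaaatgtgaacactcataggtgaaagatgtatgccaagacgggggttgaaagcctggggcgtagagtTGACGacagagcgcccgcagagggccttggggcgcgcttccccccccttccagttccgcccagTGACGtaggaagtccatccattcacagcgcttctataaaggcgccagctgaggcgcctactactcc
Jun (chr4:95052223-95052472, minus strand): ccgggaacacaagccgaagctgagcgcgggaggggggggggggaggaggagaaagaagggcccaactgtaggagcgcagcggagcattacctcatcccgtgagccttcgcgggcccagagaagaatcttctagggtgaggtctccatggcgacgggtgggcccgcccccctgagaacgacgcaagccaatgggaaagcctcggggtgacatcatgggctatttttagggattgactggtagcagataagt
Nr4a1 (chr15:101266765-101266794, plus strand): ccgggccgtgtgCGTCAgtggCGCCCCCGC
Nr4a3 (chr4:48045067-48045096, plus strand): aggagggTGACGtagcgtcccatgtCGTCA
Egr2, before the third of 5 listed starts (chr10:67537789-67537818, plus strand): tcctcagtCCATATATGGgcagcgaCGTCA
Fosb (chr7:19310087-19310116, minus strand): ggagttgcgggTGACGcaagcGCGGGGGCG

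The 8 genes gave 12 windows, 1 for each gene other than Egr2, which has 5 listed starts. The windows before the last 3 starts of Egr2 overlap. The same CRE cores and the same CArG box are counted in each of them, so the 12 windows are not independent. The core of the cyclic AMP response element (CRE), TGACG, was present in 9 of the 12 windows, those of 7 genes, against 17.8% of 32851 promoters of the same length. It occurred 4 times each before Nr4a1, Nr4a2 and Nr4a3, 2 times before Fos, once each before Fosb and Junb, and before 3 of the 5 starts of Egr2. The full palindrome TGACGTCA, which contains the core, was in none of the 12, against 1.55% of promoters. The EGR site GCGNGGGCG was found in 3 of the 12 windows, those of Nr4a1, Nr4a2 and Fosb, against 4.7% of promoters. The CArG box bound by SRF was found in 4 of the 12, all of them windows of Egr2 and so of 1 of the 8 genes, against 1.47%. Neither the AP-1 site TGANTCA (6.75% of promoters) nor the NR4A site AAAGGTCA (1.34%) was found in these windows. A match describes the letters in the window and not a bound site.

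The sorted populations carried the markers of their labels. The summed intensity of 4 Treg markers, Foxp3, Il2ra, Ctla4 and Ikzf2, was 9780 to 12874 on the Treg arrays and 439 to 900 on the Tconv arrays. That of 4 T cell markers was 8985 to 11435 on Treg and 8939 to 10861 on Tconv arrays. For other cells, each sum covers all markers measured, including those that did not pass the filter. Of 6 B cell markers measured, 2 passed the filter, and Cd79a, Ms4a1, Pax5 and Blnk did not. All 6 together gave sums of 335 to 424 on Treg and 290 to 494 on Tconv arrays. Of 7 myeloid markers 3 passed, and Csf1r, Cd14, S100a8 and Adgre1 did not. All 7 together gave sums of 273 to 394 on Treg and 285 to 468 on Tconv arrays. Of 6 markers of dendritic cells and MHC class II, 4 passed. The sums of all 6 were 383 to 727 on Treg and 398 to 933 on Tconv arrays. Of 8 CD8 T and NK cell markers 6 passed. The sums of all 8 were 925 to 1698 on Treg and 1160 to 1479 on Tconv arrays. Of 3 red cell and platelet markers measured 1 passed. The sums of all 3 were 96.3 to 132 on Treg and 91.5 to 127 on Tconv arrays. The median intensity of an array lay between 86.7 and 99.0, and within a group the 2 arrays differed over all genes with an SD of 0.18 to 0.25 on the log2 scale.

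Of the 10 genes, 9 were higher in Treg than in Tconv over the 4 mouse lines, against 28.6% of all tested genes called in either direction and 16.7% called higher. The largest differences were in the nuclear receptors Nr4a1 and Nr4a3, followed by Jun and Egr2, and the other 5 genes that passed differed by 0.18 to 0.30 on the log2 scale. Egr3 did not pass. The median difference of the 10 genes was 0.29, against -0.01 over all genes tested. All levels are log2 intensities, and all differences are log2 differences with standard errors from 1 limma model of the 16 arrays, with p-values adjusted by the Benjamini-Hochberg method over 12798 genes and called at 0.05. In sorted bulk RNA, fewer cells that express a gene and less RNA per cell cannot be told apart.

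**Figure D1:**
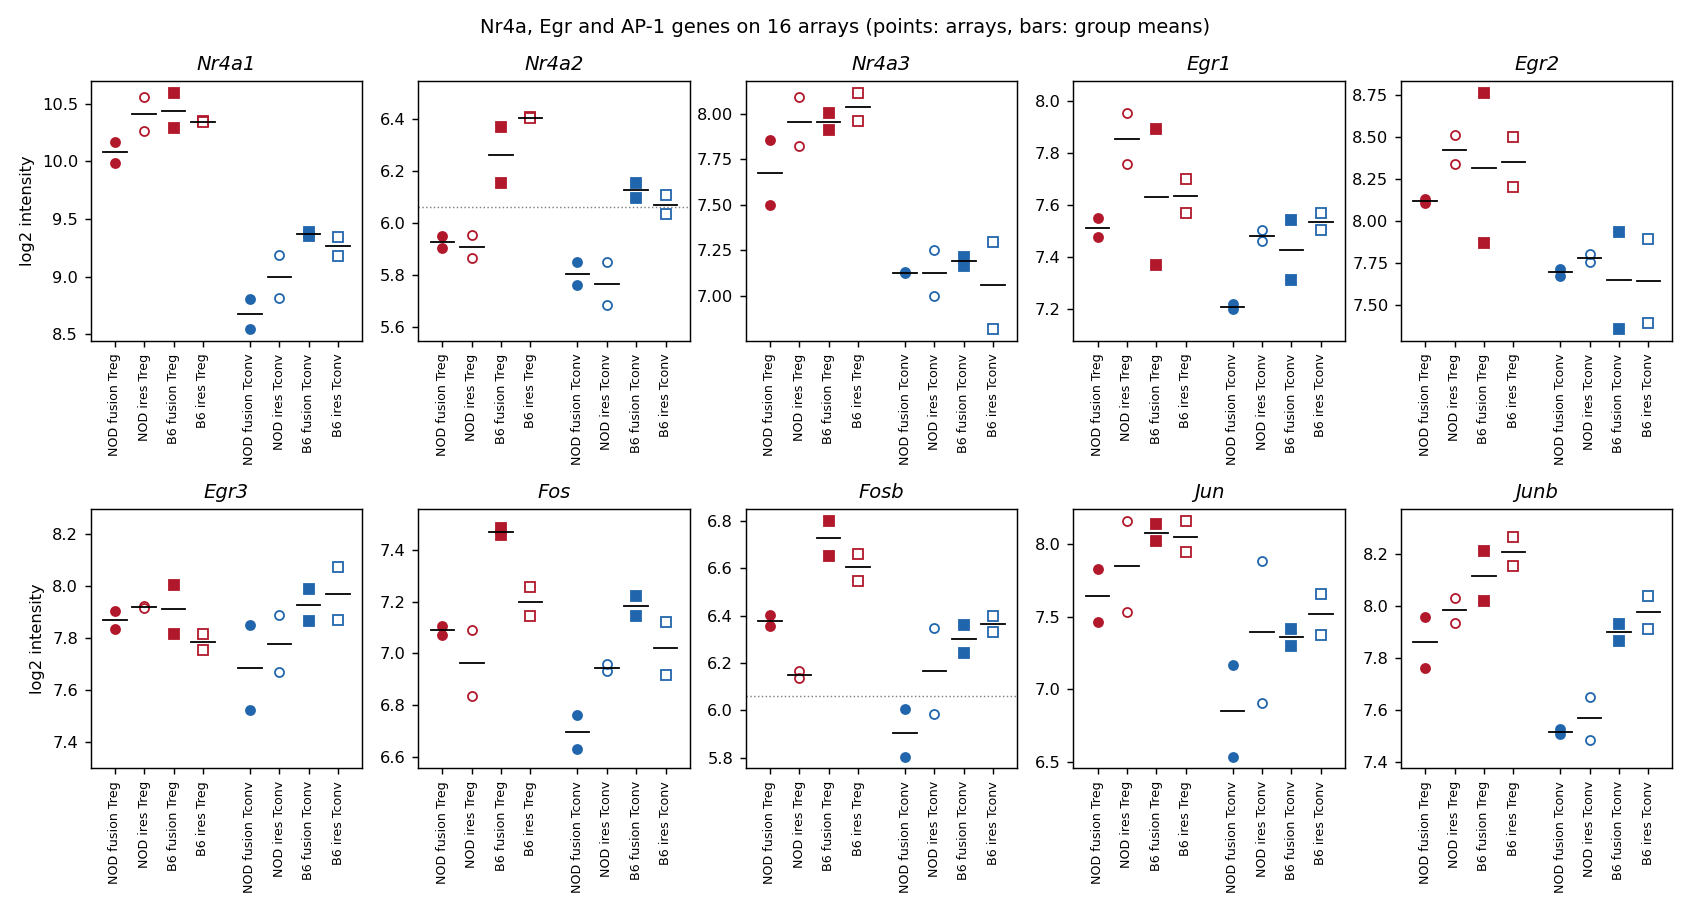
Log2 intensity (vertical axes) of each of the 10 genes on the 16 arrays, with Treg groups left of Tconv groups, NOD left of B6 and fusion left of ires. Each point is 1 array and each horizontal bar is the mean of the 2 arrays of a group (circles NOD, squares B6, filled fusion, open ires; the dotted line is the filter level of 6.06). The 8 Treg arrays of Nr4a1 sit at 9.99 or higher and the 8 Tconv arrays at 9.39 or lower, while for Egr3 the cell types overlap.

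Nr4a1, the nuclear receptor used to read TCR signal strength, had log2 intensities of 9.99 to 10.59 on the 8 Treg arrays (median 10.31) and of 8.55 to 9.39 on the 8 Tconv arrays (median 9.18). Every Treg array was above every Tconv array, which held for 5.69% of all tested genes. The difference was 1.24 ± 0.08 (SE), a 2.37-fold higher level in Treg (95% interval 2.12 to 2.64, adjusted p = 2.27e-10), and it stood 166th of 12798 genes by signed difference, highest in Treg first. Nr4a3 had levels of 7.50 to 8.11 on Treg arrays (median 7.93) and of 6.82 to 7.30 on Tconv arrays (median 7.15), again without overlap. Its difference of 0.78 ± 0.08 (adjusted p = 2.70e-07) was a 1.72-fold higher level in Treg (95% interval 1.53 to 1.93). Nr4a2, the third receptor of the family, was measured close to the filter level of 6.06, with 5.87 to 6.41 on Treg (median 6.05) and 5.69 to 6.16 on Tconv arrays (median 5.94). Its difference was 0.18 ± 0.06 (adjusted p = 0.0206), the groups overlapped, and 4 of 8 Treg arrays and 3 of 8 Tconv arrays were above that level. The Nr4a2 call was lost with arrays centred on their median (adjusted p = 0.0934), with trended and robust variances (0.0563), and without B6 fusion Tconv array 1 (0.0509), NOD ires Tconv array 1 (0.0613) or NOD ires Treg array 2 (0.0519).

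Among the EGR genes, Egr2 had levels of 7.87 to 8.76 on Treg arrays (median 8.27) and of 7.36 to 7.94 on Tconv arrays (median 7.74). Of the Treg arrays 1, at 7.87, lay below the 2 highest Tconv arrays, and the difference was 0.61 ± 0.11 (adjusted p = 0.000378). Egr1, the most widely studied family member, had levels of 7.37 to 7.95 on Treg (median 7.63) and of 7.20 to 7.57 on Tconv arrays (median 7.48), with a difference of 0.25 ± 0.07 (adjusted p = 0.0161). Egr3 had levels of 7.76 to 8.0 on Treg and of 7.52 to 8.07 on Tconv arrays, so that the Treg range lay inside the Tconv range. Its difference was 0.03 ± 0.07 (adjusted p = 0.791), with a 95% interval of -0.11 to 0.17.

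Among the AP-1 genes, Jun had levels of 7.46 to 8.16 on Treg arrays (median 7.98) and of 6.54 to 7.88 on Tconv arrays (median 7.34). The difference of 0.63 ± 0.13 (adjusted p = 0.00099) had the widest standard error of the 10 genes. Junb had levels of 7.76 to 8.27 on Treg (median 8.03) and of 7.49 to 8.04 on Tconv arrays (median 7.76), with a difference of 0.30 ± 0.06 (adjusted p = 0.000638). Junb overlapped between the cell types, and so did both Fos subunits. Fosb had levels of 6.13 to 6.80 on Treg (median 6.48) and of 5.80 to 6.40 on Tconv arrays (median 6.28), a difference of 0.28 ± 0.06 (adjusted p = 0.00252). Fos had levels of 6.84 to 7.48 on Treg (median 7.12) and of 6.63 to 7.22 on Tconv arrays (median 6.95), a difference of 0.22 ± 0.06 (adjusted p = 0.00927). On the call of every gene other than Nr4a2, no alternative run that kept the gene under test changed its side of the threshold. The split of calls over all genes depended on the scaling: 2138 higher and 1526 lower as deposited, 2024 and 2434 after quantile normalization, and 1895 and 2230 with arrays centred on their median.

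**Figure D2:**
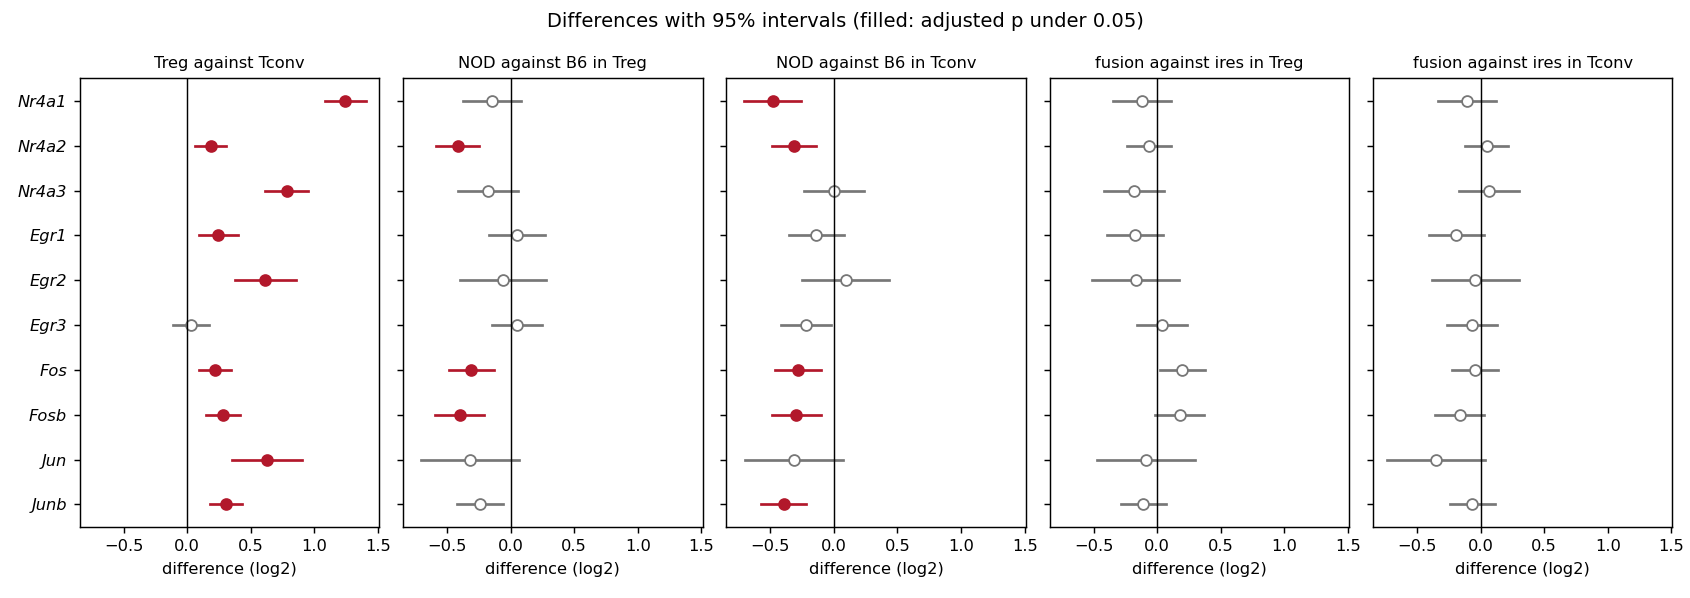
Log2 differences (horizontal axes) of the 10 genes for Treg minus Tconv and for NOD minus B6 in Treg and in Tconv. The last panels show fusion minus ires in Treg and in Tconv. Points are limma estimates, bars are 95% intervals, and filled points passed an adjusted p of 0.05. Of the 10 genes, 9 passed for cell type and none for the allele. For background, 2 (in Treg) and 4 (in Tconv) of the 9 genes other than Nr4a2 passed. Nr4a2 is filled in both, but was tested only through its B6 arrays and is not counted.

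Within single lines, Nr4a1, Nr4a3 and Junb had both Treg arrays above both Tconv arrays in each of the 4 lines, which held for 10.2% of all genes. The Nr4a1 differences were 1.40 in NOD fusion, 1.41 in NOD ires, 1.07 in B6 fusion and 1.08 in B6 ires mice. Those of Nr4a3 ran from 0.55 in NOD fusion to 0.98 in B6 ires mice. Those of Junb ran from 0.22 in B6 fusion to 0.42 in NOD ires mice. Nr4a2, Egr2, Fos, Fosb and Jun were without overlap in 3 lines and Egr1 in the 2 NOD lines. In NOD ires mice, where Fos, Fosb and Jun overlapped, the differences were 0.02 for Fos, -0.02 for Fosb and 0.45 for Jun. The Egr3 difference was -0.19 in B6 ires mice and 0.14 in NOD ires mice. By line, 9 of the 10 genes were above without overlap in NOD fusion mice (23.3% of all genes) and 7 in NOD ires mice (24.6%). In B6 fusion mice these were 6 (28.1%) and in B6 ires mice 8 (25.5%).

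The 8 group means of Nr4a1 fell in 2 blocks. Among the Treg groups they were 10.44 ± 0.22 in B6 fusion, 10.41 ± 0.21 in NOD ires, 10.35 ± 0.01 in B6 ires and 10.08 ± 0.13 in NOD fusion mice (SD, n = 2 each). Among the Tconv groups they were 9.37 ± 0.02 in B6 fusion, 9.26 ± 0.12 in B6 ires, 9.0 ± 0.26 in NOD ires and 8.68 ± 0.18 in NOD fusion mice. In this order, neighbouring groups overlapped among the first 3 Treg groups and between B6 ires Tconv and NOD ires Tconv. For Nr4a3 the Treg groups averaged 8.04 ± 0.11 in B6 ires, 7.96 ± 0.19 in NOD ires, 7.95 ± 0.07 in B6 fusion and 7.68 ± 0.25 in NOD fusion mice. NOD fusion Treg stood below the other 3 Treg groups except for 1 array of NOD ires, at 7.82. The 4 Tconv groups averaged between 7.06 and 7.19, and all their arrays lay within the range of B6 ires Tconv, 6.82 to 7.30. For Nr4a2 the order followed the background within each cell type: the Treg groups averaged 5.93 in NOD fusion and 5.91 in NOD ires mice, and 6.26 in B6 fusion and 6.41 in B6 ires mice. The Nr4a2 means of Tconv were 5.81 in NOD fusion and 5.77 in NOD ires mice, and 6.13 in B6 fusion and 6.07 in B6 ires mice.

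In Treg, the AP-1 subunit genes Fosb and Fos were lower in NOD than in B6 mice, 2 of the 9 genes other than Nr4a2, against 21% of all genes called and 9.82% called lower. For both, all 4 NOD arrays were below all 4 B6 arrays, which held for 10% of genes. Nr4a2 passed the filter through its B6 arrays alone, as all 8 of its NOD arrays, Treg and Tconv, were below the filter level. Its background differences are therefore given as values and are not counted here. The Nr4a2 levels were 5.95, 5.90, 5.87 and 5.95 on the NOD Treg arrays and 6.37, 6.16, 6.41 and 6.40 on the B6 Treg arrays, with a difference of -0.42 ± 0.08 (adjusted p = 0.00142). The Fosb levels were 6.35, 6.40, 6.17 and 6.13 on the NOD Treg arrays and 6.80, 6.65, 6.66 and 6.55 on the B6 Treg arrays, with a difference of -0.40 ± 0.09 (adjusted p = 0.00492). The Fos levels were 7.07, 7.11, 7.09 and 6.84 on the NOD Treg arrays and 7.48, 7.46, 7.26 and 7.14 on the B6 Treg arrays. In each list of 4 values the 2 fusion arrays come before the 2 ires arrays. The Fos difference of -0.31 ± 0.08 (adjusted p = 0.0158) did not pass without NOD ires Treg array 2 (adjusted p = 0.0869) or without B6 ires Treg array 1 (0.0616). Junb, at -0.24 ± 0.08, missed the threshold (adjusted p = 0.0518). It passed with a 60th percentile filter (0.0336), centred arrays (0.0151), quantile normalization (0.00667), trended and robust variances (0.0489) and without B6 fusion Treg array 1 (0.0427). The differences of Nr4a1, Nr4a3, Egr1, Egr2, Egr3 and Jun in Treg lay between -0.32 and 0.05, with adjusted p-values of 0.218 or higher.

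In Tconv, 4 of the 9 genes other than Nr4a2 were lower in NOD than in B6 mice, against 15.9% of all genes called and 6.49% called lower. They were Nr4a1, Fos, Fosb and Junb, and for Junb all 4 NOD arrays were below all 4 B6 arrays, which held for 8.92% of genes. The Junb levels were 7.51, 7.53, 7.65 and 7.49 on the NOD Tconv arrays and 7.87, 7.93, 7.91 and 8.04 on the B6 Tconv arrays, with a difference of -0.40 ± 0.08 (adjusted p = 0.00485). The Nr4a1 levels were 8.55, 8.80, 8.81 and 9.19 on the NOD Tconv arrays and 9.39, 9.36, 9.18 and 9.35 on the B6 Tconv arrays. NOD ires Tconv array 2 reached the B6 range, and the difference was -0.48 ± 0.11 (adjusted p = 0.0065). Nr4a2 differed by -0.31 ± 0.08 (adjusted p = 0.0164), Fos by -0.28 ± 0.08 (0.0336) and Fosb by -0.30 ± 0.09 (0.0366), and 1 of the 4 NOD Tconv arrays of Fosb was above the filter level. The median difference of the 9 genes other than Nr4a2 was -0.18 in Treg and -0.28 in Tconv, against -0.02 and 0.02 over all genes. That of 9 heat shock genes, which respond to handling as the 10 genes do, was -0.28 in Treg, where 3 were lower in NOD, and -0.20 in Tconv, where 1 was. The part of handling in the background differences was not tested.

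Counted with Nr4a2, the 5 calls in Tconv changed with several settings. They were 3 without a filter, with a 60th percentile filter (3 of 8 genes tested), after quantile normalization and in a fit of the Tconv arrays alone. They were also 3 without NOD fusion Tconv array 2, NOD ires Tconv array 2, B6 fusion Tconv array 1, B6 fusion Tconv array 2 or B6 ires Tconv array 1. Nr4a1 and Junb lost their call under none of the alternatives run, while Nr4a2, Fos and Fosb each lost it under several. Jun differed by -0.31 ± 0.18 (adjusted p = 0.228) and passed without NOD ires Tconv array 1, at -0.56 (adjusted p = 0.0464). With arrays centred on their median, the split over all genes was 726 higher and 1133 lower in NOD Tconv, against 1202 and 831 as deposited, and with the 60th percentile filter it was 1225 and 471.

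The background difference in Treg was then set against that in Tconv. Of the 10 genes 0 were called in limma's interaction, against 0.82% of all genes, and 1 had an unadjusted p under 0.05, against 9.90% of all genes. This was Nr4a1, whose NOD minus B6 difference was -0.15 ± 0.11 in Treg and -0.48 ± 0.11 in Tconv, an interaction of 0.33 ± 0.15 (unadjusted p = 0.041, adjusted p = 0.467). In Treg, the summed myeloid, CD8 T and NK, and dendritic cell markers did not overlap between the backgrounds, and those of B cells did. In Tconv all of these sums overlapped, and no sum was tested. The summed myeloid markers were 273 to 316 on NOD Treg arrays and 377 to 394 on B6 Treg arrays, and on Tconv arrays 285 to 468 in NOD and 349 to 381 in B6. The sums of the CD8 T and NK markers were 925 to 1061 on NOD Treg and 1155 to 1698 on B6 Treg arrays. On Tconv arrays they were 1160 to 1442 in NOD and 1181 to 1479 in B6. Those of dendritic cells and MHC class II were 383 to 448 on NOD Treg and 532 to 727 on B6 Treg arrays. On Tconv arrays they were 398 to 933 in NOD and 404 to 414 in B6. B cell marker sums were 335 to 395 on NOD Treg and 367 to 424 on B6 Treg arrays, and 290 to 494 and 300 to 331 on Tconv arrays. Of the 4 Treg markers 3 were higher in NOD Tconv, Il2ra by 0.85 ± 0.21, Ikzf2 by 0.61 ± 0.13 and Foxp3 by 0.50 ± 0.16. The sums of all 4 were 523 to 900 on NOD Tconv arrays and 439 to 573 on B6 Tconv arrays. In NOD Treg 1 of the 4 was lower, Ctla4 at -0.63 ± 0.17. The part of these cells and markers in the background differences was not tested.

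The reporter allele was compared in Treg as the mean of both backgrounds. None of the 10 genes was called in limma's test, against 0.609% of all genes, and 1 had an unadjusted p under 0.05, against 7.55% of all genes. Fos levels were 7.07, 7.11, 7.48 and 7.46 on the fusion Treg arrays and 7.09, 6.84, 7.26 and 7.14 on the ires Treg arrays, NOD before B6. The groups overlapped, and the Fos difference was 0.20 ± 0.08 (adjusted p = 0.561). The 10 differences lay between -0.18 for Nr4a3 and 0.20 for Fos, and their 95% intervals between -0.51 and 0.38. The interval for Nr4a1 was -0.34 to 0.11, that for Egr2 -0.51 to 0.17 and that for Jun -0.48 to 0.30.

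In NOD Treg alone 0 of the 10 genes were called in limma's test (0.102% of all genes), with 2 at an unadjusted p under 0.05, against 4.81% of all genes. These were Nr4a1, at -0.33 ± 0.15 (adjusted p = 0.998), and Egr1, at -0.34 ± 0.15 (adjusted p = 0.991). Nr4a1 was 10.17 and 9.99 on the NOD fusion arrays and 10.27 and 10.56 on the NOD ires arrays. In B6 Treg 0 were called (0.344% of all genes), with 1 at an unadjusted p under 0.05, which was Fos, against 9.15% of all genes. For the NOD minus B6 difference of the allele effect 0 were called (0.0391% of all genes) and 0 had an unadjusted p under 0.05, against 6.08%. For fusion against ires in Tconv these were also 0 and 0, against 0.0234% and 2.97% of all genes. For the allele difference of Treg less that of Tconv 0 were called (0.0469% of all genes), and 1 gene, Fosb, had an unadjusted p under 0.05, against 3.57% of all genes, with a difference of 0.34 ± 0.13 (adjusted p = 1.00).

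**Figure D3:**
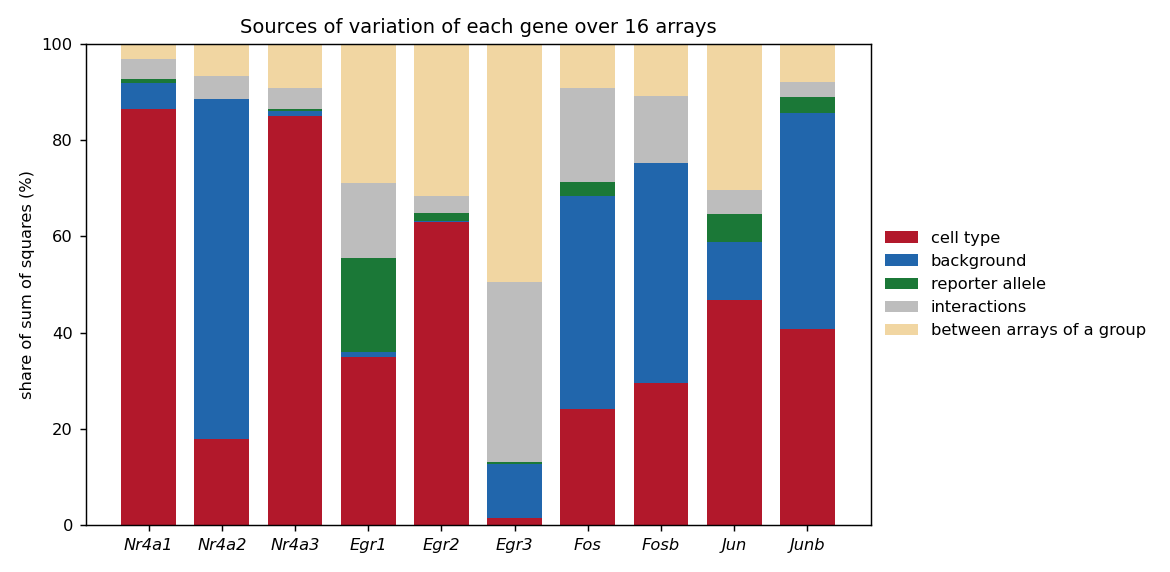
Share of the sum of squares over the 16 arrays (vertical axis, percent) that falls to cell type, background, reporter allele, their interactions and the spread between arrays of a group, for each of the 10 genes. Cell type took 86.5% for Nr4a1 and background 45.6% for Fosb, while the spread within groups took 49.5% for Egr3. Nr4a2 is shown, but it passed the filter through its B6 arrays alone.

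The variation of each gene over the 16 arrays was split into sums of squares, which gave 3 patterns. Cell type took the largest share for Nr4a1 (86.5%), Nr4a3 (85.0%), Egr2 (63.1%), Jun (46.8%) and Egr1 (35.0%), against a median of 10.4% over all genes. Background took the largest share for Fosb (45.6%), Junb (44.9%) and Fos (44.1%), against a median of 18.8%. It also did for Nr4a2 (70.6%), but this gene passed the filter through its B6 arrays alone. Its share is therefore given as a value and is not counted. For Egr3 the largest share, 49.5%, lay between the arrays of a group, against a median of 33.0%. The allele share was highest for Egr1, at 19.3%, and was 5.8% or lower for the other 9 genes, against a median of 1.89%.

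The 2 arrays of a group differed unevenly among the 10 genes. The residual SD was 0.36 for Jun and 0.31 for Egr2, at the 99.3rd and 98.8th percentile of all genes, and 0.08 for Nr4a2, at the 6.68th. Egr2 had the widest gap of the 10 genes in all 4 B6 groups. Its levels were 7.87 and 8.76 in B6 fusion Treg and 8.20 and 8.50 in B6 ires Treg, and they were 7.36 and 7.94 in B6 fusion Tconv and 7.39 and 7.89 in B6 ires Tconv. Jun had the widest gap in all 4 NOD groups. Its levels were 7.46 and 7.83 in NOD fusion Treg and 8.16 and 7.54 in NOD ires Treg, and they were 7.17 and 6.54 in NOD fusion Tconv and 7.88 and 6.91 in NOD ires Tconv. The arrays of 1 group thus differed by up to 0.89 for Egr2 and 0.98 for Jun, more than the cell type differences of these genes.

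The tested genes whose levels ran most like each of the 10 over the 16 arrays were found by Pearson's r. These values describe the arrays, which share cell type and background, and carry no p. For Nr4a1 they were Tgif1 (r = 0.983), Zfp36l1 (0.978) and Dclre1a (0.969). For Nr4a3 they were Tmem123 (0.974), Rragd (0.972) and Tmem64 (0.966), and for Egr2 Lamp1 (0.940), Glud1 (0.933) and Fam107b (0.925). For Nr4a2 they were Sdcbp2 (0.960), Vill (0.950) and Cd72 (0.934). For Fos they were Ticrr (0.911), Cdkn3 (0.890) and Bub1b (0.885), and for Fosb H2bc8 (0.932), Arf6 (0.888) and Dlgap5 (0.886). For Junb they were Herpud1 (0.940), Ubash3a (0.927) and S100a11 (0.926), for Egr1 Tagap (0.877), Rhog (0.866) and Pacc1 (0.861), and for Jun Lrrn4 (0.875), Syde1 (0.866) and Farp1 (0.861). Egr3 had the lowest such values, with Tmem253 (0.763), Ttyh2 (0.736) and Troap (0.734). 

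Lists of genes around the 10 were described in the same fit, and a few listed genes were not tested, as with 17 tested of 23 TCR signalling genes. For Treg against Tconv, 56 of the 92 tested genes of these lists were called (60.9%), Treg markers such as Foxp3 among them. Over all genes 28.6% were called, 16.7% as higher, and these shares stand beside each list count for the cell types below. Of 9 AP-1 relatives 2 were called, both higher in Treg: Batf, a partner of Jun proteins, by 0.88 ± 0.07, and Jund by 0.27 ± 0.07. Of 7 EGR and SRF partners 2 were higher, the SRF cofactor Elk3 by 0.48 ± 0.06 and the EGR corepressor Nab2 by 0.31 ± 0.06, and its relative Nab1 was lower, at -0.38 ± 0.07. The medians were 0.03 for the AP-1 relatives and 0.02 for the EGR and SRF partners. Of 17 TCR signalling genes 4 were higher and 6 lower, with a median of -0.02. Those higher were the NF-kappaB subunit Rel (0.87 ± 0.06), the calcineurin subunit Ppp3ca (0.29 ± 0.06), Nfatc1 (0.29 ± 0.06) and the adaptor Lcp2 (0.20 ± 0.06). Among those lower were Nfatc3 (-0.28 ± 0.06), the adaptor Lat (-0.26 ± 0.06) and the phospholipase Plcg1 (-0.25 ± 0.06).

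Of 15 other TCR-induced genes 13 were called, all higher in Treg, with a median of 0.81. Examples were the costimulatory receptors Tnfrsf4 (3.15 ± 0.07), Tnfrsf9 (2.80 ± 0.07) and Icos (1.80 ± 0.08) and the transcription factor Irf4 (1.75 ± 0.09). Cd69 and Ifng did not pass. The part of TCR signals in the differences of this list was not tested. Of 9 genes reported as EGR2, EGR3 or NR4A targets in T cells, all 9 were higher, with a median of 0.53. Il2ra (5.29 ± 0.15), Foxp3 (4.31 ± 0.11), Ctla4 (4.27 ± 0.12) and Ikzf2 (3.74 ± 0.09) are themselves Treg markers. The cells were sorted on a reporter at Foxp3, so the higher Foxp3 level follows from the sort. As Treg markers, Il2ra, Ctla4 and Ikzf2 go with the sorted cell type, though the sort did not use them. The part of EGR and NR4A factors in these differences was not tested. Socs1 (0.53 ± 0.07), Cdkn1b (0.25 ± 0.07) and the ubiquitin ligase gene Cblb (0.22 ± 0.06) differed less.

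**Figure D4:**
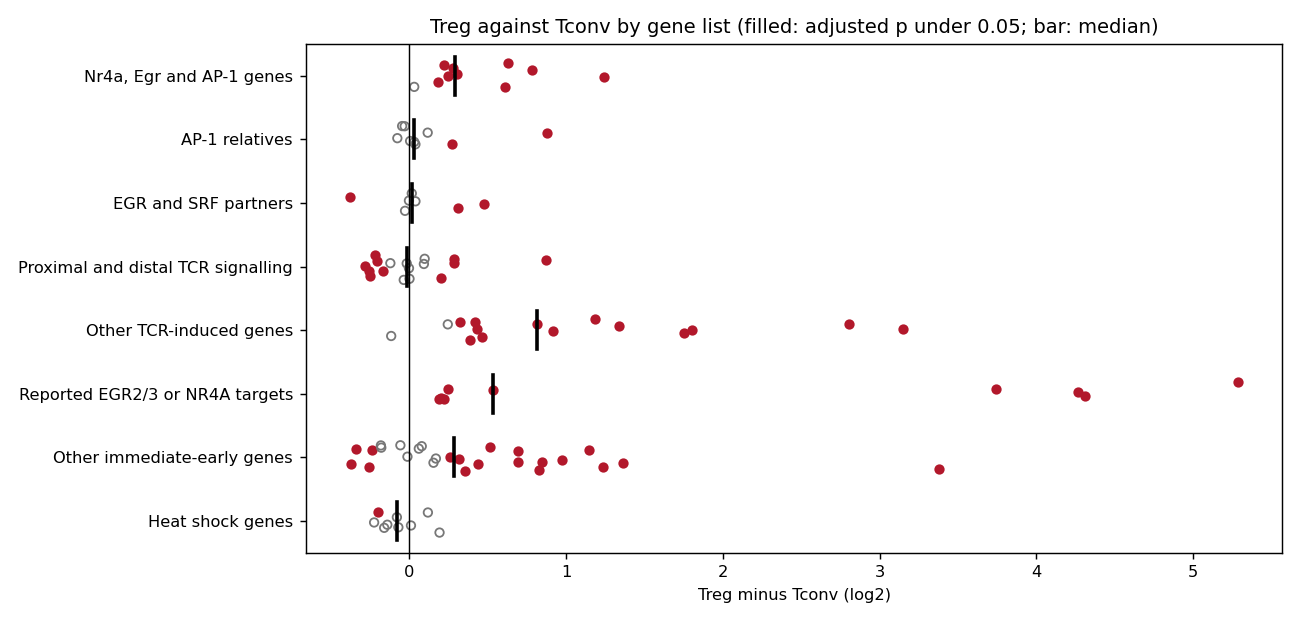
Log2 difference of Treg minus Tconv (horizontal axis) for each tested gene of the lists around the TCR-induced genes, 1 point a gene, with filled points past an adjusted p of 0.05 and a bar at each list's median. The other TCR-induced genes have a median of 0.81 and the reported EGR and NR4A targets one of 0.53. Both lie to the right of the AP-1 relatives, with a median of 0.03, and of the heat shock genes, with a median of -0.08. The reported targets include the Treg markers Il2ra, Foxp3, Ctla4 and Ikzf2, and the cells were sorted on a reporter at Foxp3.

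Of 26 other immediate-early genes 14 were higher in Treg and 4 lower, with a median of 0.29. The G protein regulator Rgs1 (3.38 ± 0.15), Gadd45b (1.36 ± 0.07), Trib1 (1.24 ± 0.08) and the MAP kinase phosphatase gene Dusp1 (1.14 ± 0.10) were higher. Dusp6 (-0.38 ± 0.10), Klf2 (-0.34 ± 0.08), Rgs2 (-0.26 ± 0.07) and Ier2 (-0.24 ± 0.07) were lower. Of 9 heat shock genes, which also respond to handling, 1 was called, Dnajb1, which was lower at -0.20 ± 0.06. The part of handling in the differences between the cell types was not tested. Among the markers of other cells, Cd74 (1.00 ± 0.20), Cd79b (0.69 ± 0.09) and Gzmb (2.65 ± 0.19) were higher in Treg, and Klrd1 (-2.35 ± 0.13), Prf1 (-1.10 ± 0.07) and H2-Ab1 (-0.38 ± 0.10) were lower.

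Between the backgrounds, 19 of the 92 tested genes of these lists were called in Treg (20.7%, against 21% of all genes) and 20 in Tconv (21.7%, against 15.9%), and the counts of single lists moved with the settings. In Treg, NOD was lower for 1 of 9 AP-1 relatives, Batf at -0.32 ± 0.10, and in Tconv for 2, Batf3 at -0.42 ± 0.10 and Fosl2 at -0.40 ± 0.13. Of the 26 other immediate-early genes, 1 was higher and 3 lower in NOD Treg, and 2 were higher and 3 lower in NOD Tconv. Dusp5 was lower in NOD Treg (-0.63 ± 0.09) and NOD Tconv (-0.48 ± 0.09), and Dusp6 was higher in both (0.45 ± 0.15 in Treg and 0.93 ± 0.15 in Tconv). Of the 15 other TCR-induced genes, 3 were called in NOD Treg, all lower, with Tnfrsf9 at -0.72 ± 0.09, and 3 were higher and 2 lower in NOD Tconv. Of the 7 EGR and SRF partners 2 were called in NOD Treg, both higher, and 1 was higher and 1 lower in NOD Tconv. Of the 17 TCR signalling genes 2 were higher and 1 lower in NOD Treg, and 2 were called in NOD Tconv, both higher. The CD3 chain gene Cd3e was higher in NOD Treg (0.51 ± 0.08) and in NOD Tconv (0.54 ± 0.08). Of the 9 reported EGR and NR4A targets 1 was higher and 2 lower in NOD Treg, and the 3 called in NOD Tconv, all higher, were the Treg markers Il2ra, Ikzf2 and Foxp3. Of the 9 heat shock genes 3 were lower in NOD Treg and 1 in NOD Tconv. Between the alleles in Treg, 3 of the 92 genes were called (3.26%, against 0.609% of all genes). Icos (0.73 ± 0.11) and Nfil3 (0.62 ± 0.13) were higher with the fusion allele, and Rgs2 (-0.52 ± 0.10) was lower.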

How the data were processed

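The authors used Affymetrix Power Tools and RMA, per the submitters' processing notes, with versions, settings and genome build not given in the sources used here; log2 was taken of the deposited linear intensities with no pseudocount. Of 25108 probe sets, 21157 carried 1 gene symbol, 1341 several and 2610 none. The symbols covered 19531 genes, and the probe set with the highest mean stood for a gene. A gene was tested if 2 or more arrays exceeded log2 6.06, the 40th percentile. In limma 3.58.1 (R 4.3.3), all 16 arrays entered 1 model with a mean for each group and moderated variances, with 8 residual degrees of freedom and 9.80 prior ones. There were 10 two-sided comparisons, adjusted over 12798 genes by the Benjamini-Hochberg method and called at 0.05. The fit was tested on simulated data. Plots and motif searches used Python 3.11.15. Precision is limited by the number of arrays.

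The 10 genes, the gene lists and the rules for naming were chosen with earlier results of these data known. Named from a list were up to 4 called genes with the largest differences in a comparison, and for likeness the 3 highest values of r. The text leaves out some of them, and Lcp2, Socs1, Cdkn1b, Cblb and the markers of other cells were chosen after their values were seen. Alternatives were the filter, scaling, variance model, array weights, probe set summary, groups in the fit, a replicate block and leaving out each array. Strain differences in the probes' targets were not examined. Promoter sequences are from RefSeq (GRCm38.p6).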

Additional observations from a re-analysis of the deposited data

Results flagged for a closer look

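Some NOD minus B6 differences were called as unequal in Treg and Tconv by limma's interaction. This held for 2 of the 92 tested list genes (2.17%, against 0.82% of all genes), Pdcd1 and Tnfrsf4. It also held for Cd74 and Itgam, which are markers of other cells, and for none of the 10 TCR-induced genes. For Pdcd1, the inhibitory receptor PD-1, the NOD minus B6 difference was -0.18 in Treg and 0.82 in Tconv, an interaction of -1.01 ± 0.16 (adjusted p = 0.00222). For Tnfrsf4 it was -0.43 in Treg and 0.55 in Tconv, an interaction of -0.97 ± 0.13 (adjusted p = 0.000611). For Cd74, the MHC class II invariant chain, it was -1.01 in Treg and 0.84 in Tconv, an interaction of -1.85 ± 0.41 (adjusted p = 0.0347), with NOD fusion Tconv array 1 at 8.27 and the other 3 NOD Tconv arrays between 6.10 and 6.46. For the myeloid integrin gene Itgam it was -0.45 in Treg and 0.38 in Tconv, an interaction of -0.83 ± 0.19 (adjusted p = 0.0418). The Pdcd1 and Tnfrsf4 calls held under all 24 alternatives, that of Cd74 was lost under 11 of the 24, and that of Itgam under 17 of the 23 that tested it. For Cd74 the adjusted p without single arrays reached 0.137, without B6 fusion Treg array 2, and for Itgam 0.116, without the same array.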

How the results depend on the processing

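Over 24 or 25 alternatives a comparison, 100 differences of the 10 genes gave 2450 values: 2415 stayed on their side of the threshold, 28 lost a call, 7 gained one and 0 reversed with a call. Another 76 values, of 31 differences, changed sign where neither value was called. The genes called were 7 to 9 for Treg against Tconv (7 of the 8 genes left by the 60th percentile filter) and 8 to 9 with each array left out. Between the backgrounds the counts here include Nr4a2, which passed the filter through its B6 arrays alone. They were 2 to 4 for NOD against B6 in Treg, also 2 to 4 with each array left out. For NOD against B6 in Tconv they were 5 in the main fit. They were 3 with no filter, 3 of 8 tested with the 60th percentile filter and 3 after quantile normalization. With only the groups compared they were 3, and with each array left out 3 to 5. They stayed at 0 for the allele comparisons and interactions. The causes were not tested. Each of the 10 genes has 1 probe set that carries its symbol alone. The alternative with the mean of probe sets therefore repeated the main differences, and its values are among the 2450. Probe sets that carry several symbols were not used. As deposited, the calls over all genes were steady for Treg against Tconv (3664, range 3242 to 4458). They moved more for NOD against B6 in Treg (2690; 1597 to 3063 without single arrays) and in Tconv (2033; 841 to 2365). For fusion against ires in Treg they were 78, 51 with centred arrays and 30 to 91 without single arrays. In B6 Treg they were 44, with 168 in a fit of these groups alone, 23 with centred arrays, 20 with array weights and 11 to 49 without single arrays. In NOD Treg they were 13, with 2 in a fit of these groups alone and 3 to 15 without single arrays. For the allele's NOD minus B6 difference they were 5, with 9 under the 60th percentile filter, 8 after quantile normalization, 9 with trended variances, 8 in a fit of these groups alone and 3 to 8 without single arrays. For the allele in Tconv they were 3, with 6 with trended variances and 2 to 12 without single arrays. For its Treg minus Tconv difference they were 6, with 2 after centring, 10 after quantile normalization, 19 with trended variances, 16 with the replicate block and 2 to 18 without single arrays. For the background difference of Treg less that of Tconv they were 105, and 69 to 141 without single arrays. Counts of the surrounding lists between the backgrounds were small and moved by more than 1.5 times under many alternatives, as with 1 to 6 TCR signalling genes in Treg. The heat shock count for Treg against Tconv ran from 0 to 2.

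Same-numbered arrays of different groups deviated together in some pairs: over 28 pairs of groups the correlation of the replicate difference across genes ran from -0.37 to 0.47 (median 0.15), with 16 over 0.1 and 6 under -0.1. With the replicate number as a block, 9 of the 10 genes were called for Treg against Tconv. Counted with Nr4a2, 4 were called for NOD against B6 in Treg, where Junb passed (adjusted p = 0.0417), and 5 in Tconv. The calls over all genes for Treg against Tconv were 3981 with the block. No label says what the numbers stand for. Within B6 the correlations ran from -0.01 to 0.40 and within NOD from -0.24 to 0.34, and the mean correlation with the other groups was positive for 7 of the 8 groups. The split of calls over all genes for the background difference of Treg less that of Tconv was 32 higher and 73 lower as deposited and 43 and 47 with centred arrays. With 2 arrays a group and no scanner files, probe brightness limits Nr4a2 and Fosb most, as their NOD levels lay near or below the filter.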
